A study of Glycine max with 24 samples.

Results

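Transcripts that rose late in both organs were selected from RNA sequencing of soybean (Glycine max, cultivar Williams-82) cotyledons and trifoliate leaves. A transcript was a member when its mean deposited log2 value was at least 2 higher at C-III than at C-II in cotyledon and at least 2 higher at L-V than at L-III in leaf. In addition, all 3 later libraries had to lie above all 3 earlier libraries in each organ. The selection gave 221 of 73320 transcripts (0.301%), which belonged to 209 of 54175 genes. The rule used the measured values of C-II, C-III, L-III and L-V, so the levels at these stages are given as a description without a test.

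Each stage was represented by 3 libraries, 9 from cotyledon and 15 from leaf, each from a separate pair of cotyledons or a separate trifoliate of the 4th node. All plants were untreated and of 1 genotype. Cotyledons were collected 4, 15 and 27 days after planting (C-I, C-II and C-III), and C-III cotyledons were starting to yellow. Leaves were collected at the V3 stage (L-I) and, by the labels, 2, 4, 6 and 7 weeks later (L-II to L-V), with visible senescence at L-IV and L-V. The study's methods give other intervals for the leaf stages. For C-I, seedlings were raised in boxes on MS medium, and all other plants were raised in soil. Stage and growth condition therefore cannot be told apart between C-I and the later cotyledon stages.

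Leaf senescence is the ordered dismantling of a leaf at the end of its life, in which chloroplasts are broken down and nitrogen, sulfur and other nutrients are moved to seeds and young organs. Soybean cotyledons first feed the seedling from stored protein and oil, then turn green and photosynthesize, and finally yellow and drop. Genes whose transcripts accumulate during this process are known as senescence-associated genes. They include transcription factors of the NAC and WRKY families, nutrient transporters, and enzymes that break down or modify cell constituents.

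Levels are given as normalized counts, which are the reads on a transcript divided by a scaling factor of the library. Organs were scaled separately and no correction for transcript length was made, so levels are compared between stages of 1 organ and not between organs or transcripts. The libraries held 2163050 to 20839594 reads in cotyledon and 1852184 to 6887154 in leaf. A count of 3 reads per library was taken as the detection floor, and it equalled 0.833 to 8.96 normalized counts in the cotyledon libraries and 1.71 to 8.52 in those of the leaf. This floor covers counting error only. As an organ check, transcripts annotated with photosynthesis (145, a group partly picked by the study from these libraries) took 4.53% to 6.47% of normalized counts at C-I and 0.781% to 0.859% at C-III. They took 7.79% to 10.3% at L-I, 3.15% to 6.85% at L-III and 0.788% to 2.13% at L-V. The ranges at L-III and L-V overlapped those at C-I and C-III, so this share does not tell the organs apart. No gene was annotated as a seed storage protein, so the cotyledon identity was not checked by markers. In whole organs, more RNA per cell and more cells of a type cannot be told apart.

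The members as a group went from low to high in both organs. Only 42 of them were annotated, and these included NAC transcription factors, amino acid and sulfate transporters, UDP-glycosyltransferases and wall and starch enzymes. All members together took 0.0713% to 0.0964% of the reads of C-I libraries. They took 0.203% to 0.273% of those of C-II and 1.65% to 2.03% of those of C-III. The L-I libraries held 0.0818% to 0.0882% of their reads on members, the L-II libraries 0.105% to 0.301% and the L-III libraries 0.169% to 0.257%. This share was 0.807% to 1.19% in the L-IV libraries and 1.45% to 4.88% in the L-V libraries. The L-IV libraries, which the rule did not use, were all above the libraries of L-I to L-III and below those of L-V. The stage mean of a member had a median of 3.20 normalized counts for C-I, then 13.5 for C-II and 115 for C-III. This median was 4.06 for L-I, 5.15 for L-II and 5.34 for L-III, and it was 29.4 for L-IV and 129 for L-V. All 3 libraries were at the floor for 73 members in C-I, 86 in L-I, 68 in L-II, 56 in L-III and 11 in L-IV.

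**Figure D1:**
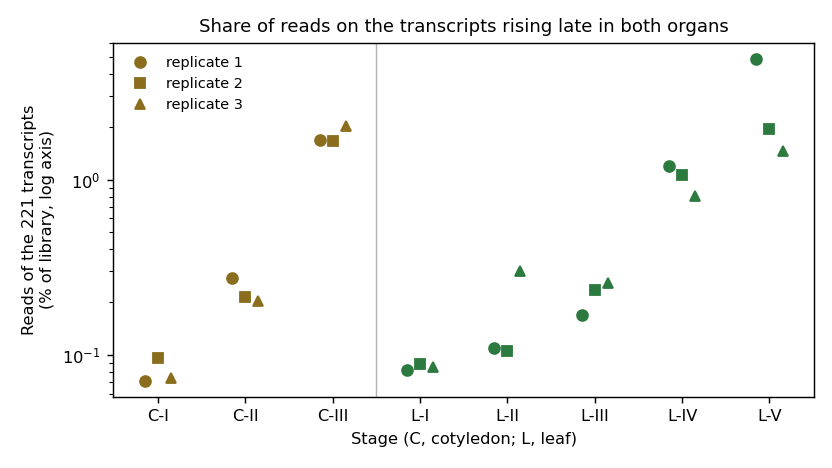
Share of each library's reads that fell on the 221 transcripts, in percent on a log axis, by stage. Each symbol is 1 library and its shape gives the replicate. The leaf share stays under 0.31% from L-I to L-III and lies between 0.807% and 4.88% at L-IV and L-V, where L-V replicate 1 is highest.

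The difference from C-II to C-III ran from 2.01 to 5.72 on the deposited log2 scale (median 2.60), and the difference from L-III to L-V from 2.01 to 9.50 (median 3.14). The leaf difference was the larger in 147 members and the cotyledon difference in 74, but the organs were scaled separately. Without L-V replicate 1 the median leaf difference was 2.53, which is below the cotyledon median. The cotyledon criterion alone was met by 926 transcripts (1.26%) and the leaf criterion alone by 1026 (1.40%), so the members made up 23.9% of the first list and 21.5% of the second. The same rule with both signs turned gave 363 transcripts that fell in both organs, and 5 transcripts rose in cotyledon and fell in leaf. Just inside the limit were Glyma09g34360.2 (2.31 in cotyledon, 2.01 in leaf), Glyma02g36990.3 (2.01 and 2.22) and Glyma07g16350.1 (2.01 and 2.89). Just outside were Glyma19g05140.1 (1.99 and 2.41), Glyma01g34830.1 (1.99 and 3.87) and Glyma03g03711.1 (1.99 and 4.37).

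One library of the last leaf stage stood apart from the others. L-V replicate 1 held the highest value of its stage in 199 of 221 members, against 40.9% of all transcripts with at least 10 reads at L-V. It exceeded the mean of the other L-V libraries by a median of 3.69-fold over the members, while the median over all transcripts was 0.02 on the log2 scale. Its excess was at least 10-fold in 40 members. The median member level was 233 normalized counts in this library, 62.7 in replicate 2 and 35.9 in replicate 3, against 21.6 to 30.4 in the L-IV libraries. Replicate 3 was at or below the highest L-IV library in 115 members, replicate 2 in 66 and replicate 1 in 12.

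The same order of the L-V libraries was seen in the wider set chosen on the cotyledon criterion alone. Over the 855 such transcripts with at least 10 reads in leaf, which include the 221 members, L-V replicate 1 exceeded the mean of the other replicates by a median of 1.14 on the log2 scale. It was the highest L-V library in 74.7% of them. Median levels of these transcripts were 36.5, 12.3 and 8.05 normalized counts in L-V replicates 1, 2 and 3. Over the 634 of them that are not members the excess of L-V replicate 1 had a median of 0.88 on the log2 scale, it was the highest L-V library in 69.4%, and median levels were 19.6, 6.17 and 4.39 normalized counts. Photosynthesis transcripts took 0.788%, 1.73% and 2.13% of normalized counts in the same libraries, the reverse order. The part of these differences in the members' rise was not tested.

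Without L-V replicate 1 the rule gave 158 transcripts, and 156 of the 221 members were among them (70.6%). The median leaf difference of the 221 members was then 2.53, the lowest 0.65, and 218 members kept a difference of at least 1. In cotyledon, C-III replicate 3 was the highest of its stage in 156 members (39.5% of all transcripts), but its median excess over the mean of the others was only 1.34-fold. Without it the rule gave 200 transcripts, 188 of them members.

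**Figure D2:**
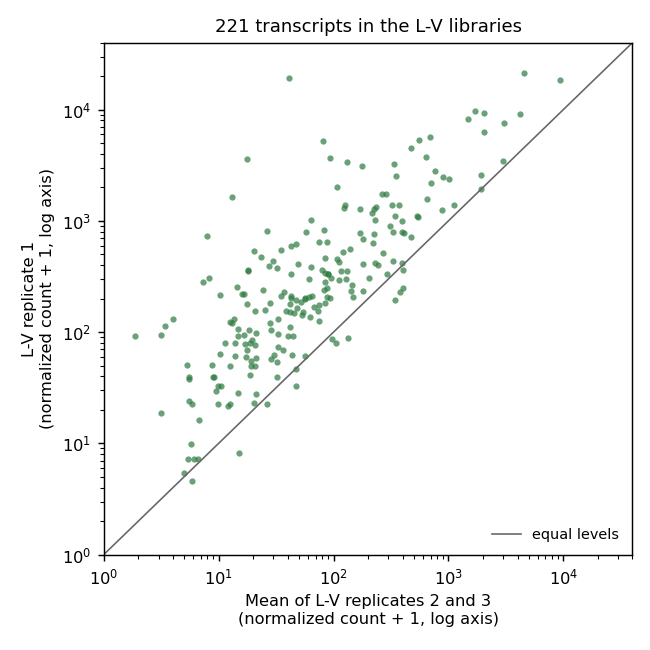
Level of each of the 221 transcripts in L-V replicate 1 (vertical axis) against the mean of L-V replicates 2 and 3 (horizontal axis), both as normalized count plus 1 on log axes. Each point is 1 transcript and the line marks equal levels. Most points lie above the line, with a median ratio of 3.69.

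The rule left out the libraries of L-I, L-II and L-IV, so the step from the mature to the senescing leaf could be tested in leaf libraries not used for the selection. A limma model was fitted to log2(normalized count + 1) of these 9 libraries over 50940 transcripts, with Benjamini-Hochberg adjustment over all of them. A transcript was called when its adjusted p was below 0.05 and its log2 fold change beyond 1.5 in either direction. From L-II to L-IV, 115 members were called higher, where 5.13% of all transcripts tested were called higher. Only 2 members were called lower, against 4.83% of all transcripts. The fold change was positive in 198 members (47.2% of all transcripts), and its median was 2.23 against -0.03 over all transcripts tested. With members at the floor set to their bound, the median was 1.94.

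The quartiles of the members' log2 fold changes were 0.67 and 3.35. All L-IV libraries were above all L-II libraries in 142 members, against 17.1% of transcripts, and below them in 3 members, against 15.3%. All 221 members passed the filter of at least 10 reads over the replicates of a leaf stage, but 14 passed it only through L-V, which the rule selected to be high. At L-II, 41 of the 115 called members were at the floor. The count of called members fell to 76, all of them higher, without L-IV replicate 2. Over all transcripts that fit called 1602 higher and 1478 lower, against 2615 and 2461 with every library. Of the 156 members that met the rule without L-V replicate 1, 99 were called higher (63.5%) and 1 lower, and of the other 65, 16 were called higher (24.6%).

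Among transcripts that met only the leaf criterion, 465 of 805 (57.8%) were called higher from L-II to L-IV, against 52.0% of members. Among those that met only the cotyledon criterion and passed the filter, 54 of 576 (9.38%) were called higher and 48 (8.33%) lower. The shares of members and of leaf-only transcripts were therefore close, and the share of cotyledon-only transcripts was nearer to that of all other transcripts (4.02% higher). These shares are a description, because the classes were chosen on the L-III and L-V libraries of the same leaf series.

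**Figure D3:**
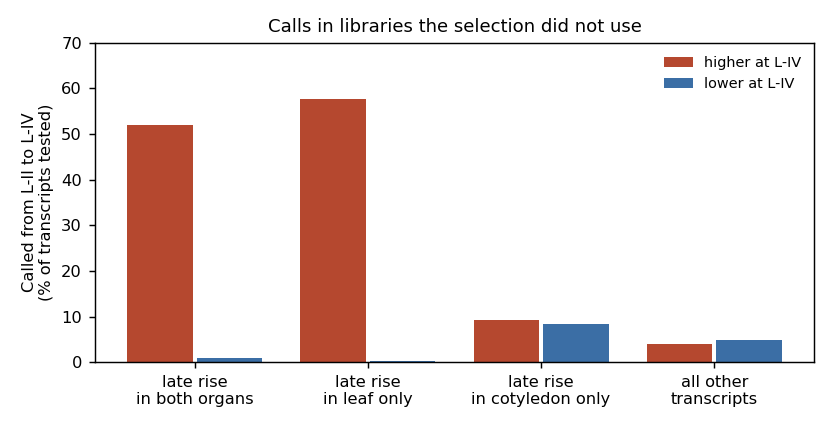
Percent of transcripts called higher (red) or lower (blue) from L-II to L-IV in 4 classes, over the transcripts tested in each class. The classes were set from C-II, C-III, L-III and L-V values only. The share called higher is 52.0% for the transcripts that rose late in both organs, 57.8% for leaf only, 9.38% for cotyledon only and 4.02% for the rest.

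Where the L-IV libraries lay between L-III and L-V also varied among members. On the deposited log2 scale, the L-IV mean was at a median of 58.3% of the way from L-III to L-V (quartiles 38.2% and 73.9%). It had gone at least halfway in 142 members, or in 172 when L-V replicate 1 was left out. All L-IV libraries were above all L-III libraries in 175 members (11.6% of all transcripts), and all L-V libraries above all L-IV libraries in 82 (6.97%). Both of these steps share libraries with the rule.

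Before senescence members were called in both directions in leaf, and the share called lower was close to that of all transcripts. From L-I to L-II, 27 members were called higher, which is 12.2% of them against 4.60% of all transcripts, and 20 lower, 9.05% against 9.21%. The log2 fold change was positive in 57.0% of members and in 47.6% of all transcripts, with a member median of 0.32, or 0 with members at the floor set to their bound. Without L-II replicate 3 the count was 23 higher (4.03% of all transcripts) and 25 lower (8.06%), and limma-voom gave 20 higher (3.96%) and 21 lower (9.99%). L-II replicate 3 held 0.301% of its reads on the members, against 0.109% and 0.105% in the other L-II libraries, and 2.53% of its normalized counts on photosynthesis transcripts, against 9.89% and 8.07%. From L-I to L-IV, 126 members were called higher (10.9% of all transcripts) and 9 lower (16.3%). The L-IV libraries all lay above the L-I libraries in 145 members, against 21.7% of all transcripts, and all below in 20, against 26.8%. A fall from L-I to L-II followed by a rise to L-IV was called in 8 members, against 0.291% of all transcripts, and 2 successive rises in 21, against 0.762%.

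In cotyledon, the step from C-I to C-II shares the C-II libraries with the rule and is a description. The comparison of C-III with C-I shares the C-III libraries with the rule and is likewise a description. C-I also differed from C-II and C-III in growth condition. All C-II libraries were above all C-I libraries in 110 members, against 23.2% of transcripts, and below them in 25, against 26.3%. All C-III libraries were above all C-I libraries in 203 members (28.0% of transcripts) and below them in none (29.9%). The rule fixes the step from C-II to C-III for members, so the same 110 members had libraries ordered without overlap at both steps. Such an order was found in 5.23% of transcripts, but there both steps were free. The count of 110 is therefore to be read against the 23.2% above and not against 5.23%. In 11 members, and in 0.476% of transcripts, C-I lay above C-II and below C-III without overlap. These values cannot be compared either, because the rise from C-II to C-III was fixed for members only.

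**Figure D4:**
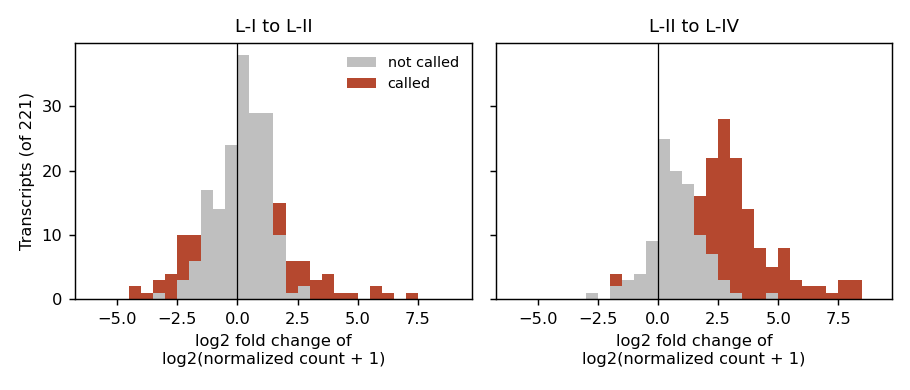
Log2 fold changes of the 221 transcripts from L-I to L-II (left) and from L-II to L-IV (right), in bins of 0.5. Red parts are transcripts called under the limits of 0.05 for adjusted p and 1.5 for the log2 fold change. The left distribution is centered near 0 (median 0.32) and the right one is shifted upward (median 2.23).

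The supplementary sheets of the study give an annotation for 38 of the 209 member genes (18.2%), or 42 transcripts, and all of these are described here. No name or role was given to the others. Of 21 functional groups formed from these annotations, 7 held a member. The sheets list mostly genes that the study had picked from these libraries, so the share of a group that rose is not independent evidence of its direction. The study took NAC genes and transporters of nitrogen, sulfur, potassium and phosphorus by annotation instead. Beside the group counts below, 5.13% of all transcripts tested were called higher from L-II to L-IV and 4.83% lower. Members made up 0.301% of all transcripts.

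NAC proteins are plant transcription factors, several of which promote leaf senescence in Arabidopsis. The group held 231 transcripts, of which 133 were tested in leaf, and 32 were called higher and 8 lower from L-II to L-IV. Of its 7 members, 4 were called higher. Glyma02g07700.1, annotated as NAC domain containing protein 47, had 0, 3.52 and 0 normalized counts at C-I, 109, 73.1 and 61.1 at C-II and 587, 600.3 and 727 at C-III. In leaf it had 5.68, 4.18 and 0 at L-I, 2.24, 1.19 and 2.21 at L-II, 16.9, 27.4 and 31.03 at L-III, 397, 566 and 422 at L-IV and 1247, 895 and 849 at L-V. All L-II libraries were at the floor, and no library of L-IV overlapped those before it. The rise from L-II to L-IV had a log2 fold change of 7.33 (SE 0.63, adjusted p = 1.51e-04) and was called in each of 18 alternative fits.

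A transcript of the same annotation, Glyma16g26740.1, had 596, 383 and 287 normalized counts at C-II, 1872, 2211 and 2723 at C-III, 4.49, 10.7 and 37.5 at L-II, 99.7, 129 and 123 at L-III, 593, 716 and 394 at L-IV and 2383, 1268 and 767 at L-V. It rose from L-II to L-IV with a log2 fold change of 5.35 (SE 0.63, adjusted p = 7.42e-04). Unlike Glyma02g07700.1, it was also called higher from L-I to L-II, where L-I had 0, 0 and 0.986, although the difference between both genes was not tested.

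Among the members were 2 transcripts annotated as NAC100, which in Arabidopsis is a target of the microRNA miR164. Glyma04g33270.1 had 2.24, 3.58 and 4.42 normalized counts at L-II, 47.3, 59.1 and 28.5 at L-IV and 79.3, 128 and 79.1 at L-V. It rose from L-II to L-IV with a log2 fold change of 3.35 (SE 0.44, adjusted p = 0.00113). Glyma06g21020.1 had 10.1, 5.97 and 16.2 at L-II and 25.6, 24.4 and 18.7 at L-IV, and although these libraries did not overlap the change was not called (adjusted p = 0.269). Its cotyledon difference of 3.87 was larger than its leaf difference of 2.12, while for Glyma04g33270.1 the leaf difference was the larger (2.52 and 3.47).

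The remaining NAC members differed at L-IV. Glyma06g38410.1 had 39.8, 13.6 and 45.4 normalized counts at L-I, 368, 143 and 859.9 at L-II and 2551, 2101 and 1070.1 at L-IV. It was called higher from L-II to L-IV (log2 fold change 2.32, adjusted p = 0.0438), but the call was lost in 9 of 18 alternative fits, among them those without L-I replicate 1 or 3, L-II replicate 1 or 2 or any L-IV library. Glyma12g22880.1 had 2.24, 3.58 and 59.6 at L-II, 55.3, 22.2 and 8.84 at L-IV and 3381, 235 and 27.1 at L-V. Its L-II and L-IV libraries overlapped (adjusted p = 0.581), and L-V replicate 1 alone carried most of its late level. Glyma19g28515.1, annotated as NAC087, which acts in programmed cell death of the root cap in Arabidopsis, had 8.98, 8.36 and 12.5 at L-II, 13.6, 31.1 and 13.8 at L-IV and 84.6, 17.5 and 19.8 at L-V and was not called (adjusted p = 0.273).

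WRKY factors bind the W-box of defense and senescence genes. From L-II to L-IV, 46 of 69 WRKY transcripts (57 genes listed in the sheets) were called higher and none lower. Of the 69, 1 was a member, where 0.301% of all transcripts were members, so this count shows no shortage of WRKY members. Glyma17g03950.4, annotated as WRKY23, had 3.37, 3.58 and 13.99 normalized counts at L-II, 29.6, 24.4 and 24.6 at L-IV and 61.5, 28.8 and 57.1 at L-V, and was itself not called (adjusted p = 0.108). In the WRKY group 19 transcripts met a leaf difference of 2 and 1 met a cotyledon difference of 2.

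Other annotated regulators included a zinc finger protein of the C2H2 and C2HC superfamily. Its transcript Glyma18g52410.1 had 1.12, 2.39 and 5.15 normalized counts at L-II, 88.9, 99.8 and 46.2 at L-IV and 308, 102 and 87.1 at L-V, and rose from L-II to L-IV with a log2 fold change of 4.41 (SE 0.53, adjusted p = 7.87e-04). Glyma05g32040.1, of the integrase-type DNA-binding superfamily that holds the AP2/ERF factors, followed another course. It had 0, 1.05 and 1.97 at L-I, 113, 166 and 36.8 at L-II, 5.92, 7.41 and 6.46 at L-III, 18.4, 46.6 and 21.6 at L-IV and 45.4, 42.1 and 49.8 at L-V. Its leaf level was thus highest at L-II, and it was called higher from L-I to L-II (log2 fold change 5.62, adjusted p = 3.90e-04) but not changed from L-II to L-IV (adjusted p = 0.114). The C-II cotyledons had 10.9, 22.98 and 26.6 and the C-III cotyledons 406, 329 and 410.0.

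Glyma03g36140.5, annotated as subunit A10 of nuclear factor Y, which binds CCAAT boxes, had 1.12, 3.58 and 1.47 normalized counts at L-II and 12.01, 14.8 and 4.91 at L-IV and was not called (adjusted p = 0.0893). Ubiquitin ligases attach ubiquitin to proteins and so mark many for breakdown. The transcript annotated as plant U-box 25, Glyma08g00240.2, had 1.12, 0 and 0.736 at L-II and 8.81, 6.65 and 7.86 at L-IV and rose with a log2 fold change of 2.50 (SE 0.46, adjusted p = 0.00662), a call lost at pseudocounts of 0.1 and 5. Glyma07g37470.1, annotated as TOXICOS EN LEVADURA 2, had 3.37, 3.58 and 7.36 at L-II, 20.02, 42.9 and 54.04 at L-IV and 22.3, 26.7 and 11.7 at L-V, so that its L-IV level was not below its L-V level. It rose from L-II to L-IV with a log2 fold change of 2.75 (SE 0.52, adjusted p = 0.00740).

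Amino acid carriers move the nitrogen released by protein breakdown. The group of amino acid and peptide transporters held 23 transcripts, of which 13 were called higher and none lower from L-II to L-IV, and all 4 members were called higher. Glyma09g21070.2, annotated as amino acid transporter 1, which carries basic amino acids in Arabidopsis, had 0 in each library normalized counts at C-I, 5.44, 7.39 and 14.6 at C-II and 87.6, 72.7 and 86.1 at C-III. In leaf it had 0, 0 and 0.986 at L-I, 3.37, 2.39 and 0.736 at L-II, 4.23, 14.8 and 23.3 at L-III, 216, 195 and 223 at L-IV and 227, 289.9 and 461 at L-V. It was at or near 0 in young leaves, the 3 L-IV libraries were close to each other, and L-V replicate 1 was the lowest of its stage. The rise from L-II to L-IV had a log2 fold change of 6.17 (SE 0.47, adjusted p = 8.14e-05).

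A second transcript model of the same gene, Glyma09g21070.3, had 1.12, 0 and 0 normalized counts at L-II and 47.3, 65.1 and 77.6 at L-IV and rose with a log2 fold change of 5.62 (SE 0.45, adjusted p = 1.10e-04). Glyma08g13640.3, of the same annotation, had 0, 0 and 0.736 at L-II and 17.6, 10.4 and 10.8 at L-IV and rose with a log2 fold change of 3.50 (SE 0.47, adjusted p = 0.00131). The transcript annotated as lysine histidine transporter 1, an importer of amino acids in Arabidopsis, was less even. Glyma19g22590.1 had 5.44, 5.34 and 0 at C-II, 5.92, 68.3 and 14.4 at C-III, 2.24, 0 and 1.47 at L-II, 0.845, 31.4 and 0 at L-III, 166, 208 and 119.9 at L-IV and 895, 62.7 and 562 at L-V. Replicate 2 of L-V was more than 8 times below the others, yet the rise from L-II to L-IV was called with a log2 fold change of 6.33 (SE 0.60, adjusted p = 2.30e-04). Glyma19g22570.1, which has 1 gene between it and Glyma19g22590 by identifier and is annotated as uncharacterized, was at 0 in all L-III libraries but had 0, 52.3 and 33.5 at L-I and 4.49, 14.3 and 30.9 at L-II, against 7.13, 20.6 and 7.32 at L-V.

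Glyma06g12840.1 belongs to the nodulin MtN21/EamA-like family, which holds amino acid exporters in Arabidopsis. It had 8.16, 11.5 and 10.6 normalized counts at C-II, 473, 367 and 166 at C-III, 0, 5.23 and 7.89 at L-I, 61.7, 40.6 and 70.7 at L-II, 149, 38.2 and 179.7 at L-III, 2065, 1580.0 and 397 at L-IV and 1946, 1785 and 2053 at L-V. Its L-V libraries were close to each other, and in cotyledon it was at 0 in every C-I library. It was called higher from L-I to L-II (log2 fold change 3.91, adjusted p = 0.00905) and again from L-II to L-IV with a log2 fold change of 4.25 (SE 0.81, adjusted p = 0.00775), a call lost at a pseudocount of 0.1.

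Sulfate transporters were represented by 2 members of 48 transcripts. Of 35 transcripts tested in this group, 8 were called higher and none lower from L-II to L-IV. Glyma08g14700.1, annotated as sulfate transporter 2;1, a carrier of the vascular tissue in Arabidopsis, had 0, 14.8 and 7.97 normalized counts at C-II and 197, 188 and 436 at C-III. In leaf it had 0, 2.09 and 0 at L-I, 15.7, 14.3 and 2.94 at L-II, 40.6, 4.56 and 95.7 at L-III, 306, 96.9 and 36.4 at L-IV and 2193, 899 and 523 at L-V. The libraries of L-II and L-IV did not overlap, and the rise was called (log2 fold change 3.37, adjusted p = 0.0275). The call was lost in 6 of 18 alternative fits, among them those without L-II replicate 2 or 3 or L-IV replicate 1 or 2. Glyma15g01710.1, annotated as sulfate transporter 3;4, had 26.9, 10.7 and 19.1 at L-II, 13.6, 20.7 and 12.8 at L-IV and 162, 59.6 and 35.1 at L-V. Its L-II and L-IV libraries overlapped (log2 fold change -0.20, adjusted p = 0.812), so its leaf rise was seen only at L-V.

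**Figure D5:**
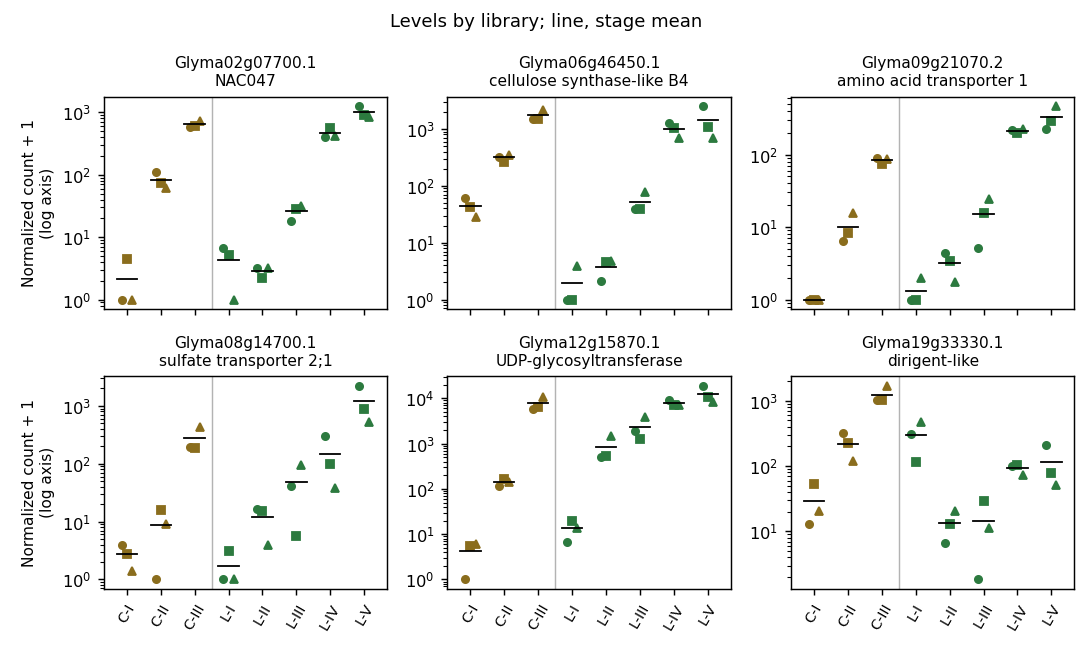
Normalized count plus 1 (log axis) in each of the 24 libraries for 6 annotated members. Brown symbols are cotyledon and green symbols leaf libraries, symbol shape gives the replicate, and the black line is the stage mean. The L-IV and L-V libraries overlap for cellulose synthase-like B4, while for sulfate transporter 2;1 all L-V libraries are above those of L-IV. The dirigent-like transcript is high at L-I, low at L-II and L-III, and higher again at L-IV and L-V.

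Among carriers of the major facilitator superfamily, Glyma17g10450.2 had 73.9, 76.3 and 53.3 normalized counts at L-I, 260.4, 277 and 304 at L-II, 1449.6, 2308 and 1719 at L-IV and 2577, 1662 and 2204 at L-V. It rose at both steps, with a log2 fold change of 2.05 from L-I to L-II (adjusted p = 5.01e-04) and a log2 fold change of 2.67 (SE 0.24, adjusted p = 1.86e-04) from L-II to L-IV. Glyma13g17730.1 had 2.24, 10.7 and 76.6 at L-II and 207, 307 and 307 at L-IV, and its call (adjusted p = 0.0178) was lost without L-II replicate 2 or any L-IV library. Glyma13g25620.1, annotated as zinc induced facilitator-like 1, went from 2.84, 13.6 and 19.7 at L-I to 126, 266 and 567 at L-II (log2 fold change 4.67, adjusted p = 0.00125) and had 263, 376 and 233 at L-IV. It was not called from L-II to L-IV (adjusted p = 0.967).

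UDP-glycosyltransferases attach sugars to hormones, phenolics and other small molecules. They made up the 5 members of the detoxification group, which also holds cytochrome P450 enzymes, glutathione S-transferases and peroxidases. In this group of 138 transcripts, 29 were called higher and 24 lower from L-II to L-IV, and all 5 members were called higher. Glyma12g15870.1 had 0, 4.39 and 5.22 normalized counts at C-I, 114, 163 and 139 at C-II and 5929, 6384 and 10818 at C-III. In leaf it had 5.68, 18.8 and 12.8 at L-I, 507, 533 and 1496 at L-II, 1864, 1255 and 3854 at L-III, 9098, 7186 and 7134 at L-IV and 18596, 10624 and 8239 at L-V. Its cotyledon difference of 5.72 was the largest of the members. The libraries of L-I, L-II and L-IV did not overlap each other, and it rose from L-I to L-II (log2 fold change 5.92, adjusted p = 8.37e-05) and from L-II to L-IV with a log2 fold change of 3.39 (SE 0.47, adjusted p = 0.00165).

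Glyma20g26420.1 had 2.84, 6.27 and 0 normalized counts at L-I, 487, 263 and 1278 at L-II and 4345, 4185 and 3958 at L-IV. Its rise from L-I to L-II was the largest among the members (log2 fold change 7.50, adjusted p = 1.66e-04), and its call from L-II to L-IV (adjusted p = 0.0229) was lost without L-II replicate 1 or 2 or any L-IV library. Glyma11g00230.1, annotated as UDP-glucosyl transferase 73B3, had 535, 236 and 873 at L-II, 2976, 4747 and 3958 at L-IV and 3457, 2259 and 3656 at L-V, so that L-IV was not below L-V. It rose from L-II to L-IV with a log2 fold change of 2.99 (SE 0.45, adjusted p = 0.00238). The 88A1 transcript Glyma09g23720.1 had 4.49, 2.39 and 0 at L-II, 324, 365 and 302 at L-IV and 194, 202 and 480.3 at L-V and rose with a log2 fold change of 6.96 (SE 0.78, adjusted p = 5.61e-04). For Glyma01g02670.1, annotated as 85A3, levels were 5.68, 16.7 and 7.89 at L-I, 98.8, 71.6 and 271 at L-II and 488, 391 and 441 at L-IV. Its rise from L-II to L-IV (adjusted p = 0.0379) was called in 9 of 18 alternative fits and was lost without L-I replicate 3, L-II replicate 1 or 2 or any L-IV library.

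Polysaccharide enzymes among the members concerned starch and the cell wall. Glyma01g41190.1, annotated as a chloroplast beta-amylase, which releases maltose from starch, had 234, 175 and 150.1 normalized counts at C-II, 958, 1169.8 and 1034 at C-III, 0, 0 and 2.96 at L-I, 25.8, 19.1 and 66.99 at L-II, 228, 269 and 280.0 at L-IV and 334, 194 and 384 at L-V. It was called higher from L-I to L-II (log2 fold change 4.39, adjusted p = 0.00102) and from L-II to L-IV with a log2 fold change of 2.96 (SE 0.59, adjusted p = 0.00986), a call lost at a pseudocount of 0.1. Its L-IV and L-V libraries overlapped.

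All 3 models of Glyma06g46450, annotated as cellulose synthase-like B4, were members. Glyma06g46450.1 had 0, 0 and 2.96 normalized counts at L-I, 1.12, 3.58 and 3.68 at L-II, 38.9, 37.6 and 76.3 at L-III, 1298, 1054 and 695 at L-IV and 2503, 1093 and 704 at L-V. It was nearly silent up to L-II, and the L-IV and L-V libraries overlapped. The rise from L-II to L-IV had a log2 fold change of 8.11 (SE 0.58, adjusted p = 5.76e-05). The models Glyma06g46450.2 and Glyma06g46450.3 rose with log2 fold changes of 5.30 (adjusted p = 2.93e-04) and 5.55 (adjusted p = 1.79e-04).

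Glyma18g18931.1, annotated as xyloglucan:xyloglucosyl transferase 33, which cuts and rejoins wall xyloglucan, was at 0 in all L-I libraries and had 33.7, 115 and 95.7 normalized counts at L-II, 28.7, 13.7 and 12.9 at L-III, 147, 549 and 265 at L-IV and 233, 207 and 149 at L-V. From L-I to L-II it rose at least 16.7-fold against the floor of L-I (adjusted p = 1.21e-04). Its highest leaf library was L-IV replicate 2. Its call from L-II to L-IV (adjusted p = 0.0431) was lost in 8 of 18 alternative fits, among them those without L-I replicate 2 or 3, L-II replicate 1 or 2 or L-IV replicate 2 or 3.

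In the defense group, 58 of 111 transcripts were called higher and 4 lower from L-II to L-IV. Of the 111, 2 were members, where 0.301% of all transcripts were members. The sheets list mostly genes that the study picked from these libraries, so these counts are a description. Glyma19g33330.1, a dirigent-like transcript annotated as disease resistance-responsive, had 11.9, 51.9 and 19.3 normalized counts at C-I, 313, 225 and 117 at C-II and 1019.8, 1019.6 and 1661 at C-III. In leaf it had 309.7, 116 and 472 at L-I, 5.61, 11.9 and 19.9 at L-II, 0.845, 28.5 and 10.3 at L-III, 97.7, 104 and 71.7 at L-IV and 212, 78.1 and 49.8 at L-V. It fell from L-I to L-II by 4.41 on the log2 scale (adjusted p = 5.71e-04), the largest fall of the members at that step. From L-II to L-IV it rose with a log2 fold change of 2.90 (SE 0.53, adjusted p = 0.00620), and no L-IV or L-V library reached the highest L-I libraries. Glyma09g34360.2, annotated as an NB-ARC disease resistance protein, had 0, 0 and 18.4 at L-II and 28.03, 43.6 and 26.5 at L-IV. It was called (adjusted p = 0.0438), but only in 7 of 18 alternative fits, and the call held without only 1 of the 9 libraries, L-II replicate 3.

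Glyma11g02980.1 was the 1 member among 163 transcripts listed as close relatives of Arabidopsis senescence-associated genes, a group with 9 called higher and 12 lower of 153 tested. It had 14.9, 21.97 and 15.7 normalized counts at C-I, 889.8, 841 and 952 at C-II, 4219.9, 4182 and 6073 at C-III, 105, 241 and 141 at L-I, 199.8, 284 and 404 at L-II, 229.9, 363 and 430.5 at L-III, 1235, 932 and 778 at L-IV and 8197, 1928 and 1034 at L-V. It was above the floor in every library, and the L-II and L-IV libraries did not overlap. Its rise from L-II to L-IV had a log2 fold change of 1.76 (SE 0.36, adjusted p = 0.0109), and the call was lost without L-IV replicate 1 and in the fit of all 15 leaf libraries.

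The other annotated members were of unrelated function. Glyma16g29790.1, annotated as beta-hydroxylase 1, which makes zeaxanthin from beta-carotene, was lowest in the middle stages, with 191, 194 and 245 normalized counts at C-I, 32.7, 27.1 and 34.5 at C-II, 182, 227 and 247 at C-III, 418, 210.0 and 258 at L-I, 77.4, 42.99 and 33.9 at L-II, 34.4, 24.4 and 47.2 at L-IV and 282, 96.6 and 68.8 at L-V. It fell from L-I to L-II by 2.52 on the log2 scale (adjusted p = 0.00183) and was not called from L-II to L-IV (adjusted p = 0.477). Glyma01g37690.2, annotated as a non-catalytic subunit of a tRNA methyltransferase, had 6.73, 2.39 and 14.7 at L-II and 50.5, 62.1 and 41.3 at L-IV and rose with a log2 fold change of 2.79 (SE 0.55, adjusted p = 0.00910). Both models of the aldolase-type TIM barrel gene Glyma08g18990 were low, with a highest leaf value of 21.4 in L-V replicate 1, and neither was called. Glyma02g47390.1, an uncharacterized protein, had 22.7, 31.4 and 25.6 at L-I and 0, 2.39 and 0 at L-II, a called fall (adjusted p = 0.00742), and was not called from L-II to L-IV (adjusted p = 0.351).

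For the groups without a member, the counts stand beside 5.13% of all transcripts called higher and 4.83% called lower. As the sheets list mostly genes that the study picked from these libraries, the counts are a description. The nitrate and ammonium, potassium and phosphate transporters were instead taken by annotation, so their shares are not comparable with those of picked groups. Receptor kinases had 85 of 180 transcripts called higher and 11 lower from L-II to L-IV, and ethylene genes 11 of 23 higher and 1 lower. In the MYB, bHLH, bZIP and ERF factors, 28 of 112 were called higher and 17 lower, and in proteolysis 16 of 46 higher and 8 lower. Nitrate and ammonium transport had 8 of 40 higher and 1 lower, potassium transport 3 of 59 higher and 1 lower, phosphate transport 2 of 43 higher and 3 lower, and sugar transport 2 of 6 higher and 1 lower. Jasmonate genes had 1 of 10 higher, abscisic acid genes 1 of 18 higher and 2 lower, and the 6 amide nitrogen transcripts none in either direction. Lipid breakdown had 3 of 69 higher and 14 lower, chlorophyll breakdown 3 of 9 lower and none higher, and photosynthesis 28 of 143 lower and none higher. In these groups 0 to 4 transcripts met a cotyledon difference of 2 and 0 to 10 a leaf difference of 2. No member came from them. With 0.301% of all transcripts being members, groups of 6 to 181 transcripts may well hold none. The absence is therefore not a result about these groups. The groups depend on the annotation, and Glyma05g32040.1, of the superfamily that holds the AP2/ERF factors, was in none of them.

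Only 42 of the 221 members were annotated, and most of those with the largest changes were not. Ranked by the smaller of their organ differences, Glyma10g36760.1, Glyma11g20400.1, Glyma05g25690.1, the sulfate transporter Glyma08g14700.1, Glyma15g36200.1, Glyma12g06310.1, Glyma10g32820.1, Glyma13g25890.1, Glyma12g02000.1 and Glyma06g11750.1 came first. Glyma05g25690.1 had 2.99, 0 and 0 normalized counts at C-I, 35.4, 20.5 and 17.3 at C-II, 682, 754 and 1889 at C-III, 0, 5.23 and 3.95 at L-I, 2.24, 1.19 and 13.3 at L-II, 4.23, 7.98 and 6.46 at L-III, 1819.6, 1045 and 574 at L-IV and 21557, 7214 and 1807 at L-V. It was low in every leaf library up to L-III and high in all 6 after it, with a log2 fold change of 7.79 (SE 0.83, adjusted p = 4.41e-04) from L-II to L-IV. Its leaf difference of 9.50 was the largest of the members.

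Glyma12g06310.1 had 21.8, 33.2 and 46.5 normalized counts at C-II, 804, 977 and 1391 at C-III, 0, 0 and 2.21 at L-II, 4.23, 3.99 and 5.17 at L-III, 390.0, 174 and 51.1 at L-IV and 1380.0, 442 and 302 at L-V, and rose from L-II to L-IV with a log2 fold change of 6.69 (SE 0.81, adjusted p = 8.15e-04). The corresponding log2 fold change was 3.82 (adjusted p = 0.00126) for Glyma13g25890.1 and 4.94 (adjusted p = 0.00475) for Glyma12g02000.1. Glyma06g11750.1 was at 0 in all L-I and L-II libraries and had 8.01, 12.6 and 15.7 at L-IV and 153, 50.4 and 24.9 at L-V, a rise of at least 3.96-fold against the floor of L-II (adjusted p = 3.54e-04).

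For others of this rank the leaf rise rested on few libraries. Glyma11g20400.1 was under 5 normalized counts in every leaf library from L-I to L-IV and had 19076, 79.1 and 1.46 at L-V. L-V replicate 3 was as low as the earlier stages, and no change was called from L-II to L-IV (adjusted p = 0.226). Glyma10g32820.1 had 24.8, 49.5 and 7.86 at L-IV and 1643, 14.4 and 9.52 at L-V, with replicate 1 far above the other L-V libraries, which lay within the range of L-IV. The calls from L-II to L-IV of Glyma10g32820.1 (adjusted p = 0.0182) and Glyma15g36200.1 (adjusted p = 0.0160) were lost without L-II replicate 1 or 2 or L-IV replicate 1 or 2. Glyma10g36760.1, first by rank, had 0, 0 and 15.5 at L-II, 62.5, 17.7 and 19.7 at L-IV and 1294, 223 and 21.96 at L-V, and its call (adjusted p = 0.0464) held without only 1 of the 9 libraries, L-II replicate 3.

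The largest called rises from L-II to L-IV were those of Glyma14g36690.1, Glyma09g05376.1, Glyma06g46450.1, Glyma05g25690.1 and Glyma03g38570.1. Glyma14g36690.1 had 11.9, 12.3 and 10.4 normalized counts at C-I, 963, 696 and 1452 at C-II, 5188, 4692 and 6930.1 at C-III, 0, 8.36 and 5.89 at L-II, 10.99, 91.8 and 6.46 at L-III, 1482, 1476 and 984 at L-IV and 7555, 4837 and 1210.2 at L-V. On the log2 scale most of its cotyledon increase lay before C-II, while its leaf increase lay after L-III. It rose from L-II to L-IV with a log2 fold change of 8.33 (SE 0.73, adjusted p = 1.67e-04). Glyma09g05376.1 was at 0 in all 9 libraries of L-I, L-II and L-III and had 557, 358 and 162 at L-IV and 449, 60.6 and 151 at L-V. This was a rise of at least 118-fold against the floor of L-II (adjusted p = 3.19e-05), and its L-V libraries overlapped those of L-IV. Glyma03g38570.1 had 3.37, 2.39 and 7.36 at L-II, 1636, 909 and 624 at L-IV and 6238, 2063 and 2013 at L-V and rose with a log2 fold change of 7.61 (SE 0.45, adjusted p = 3.19e-05).

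Both members called lower from L-II to L-IV had their lowest leaf mean at L-III. Glyma12g16270.1 had 216, 310.4 and 330.5 normalized counts at L-I, 117, 156 and 229 at L-II, 17.7, 26.2 and 36.2 at L-III, 84.1, 61.4 and 26.5 at L-IV and 823, 77.1 and 84.9 at L-V. Its fall (log2 fold change -1.62, adjusted p = 0.0294) was lost in 8 of 18 alternative fits, among them those without L-II replicate 2 or 3 or L-IV replicate 2 or 3. Glyma13g28970.1 had 32.5, 25.1 and 78.04 at L-II, 14.4, 6.65 and 13.8 at L-IV and 90.9, 57.6 and 30.02 at L-V. Its fall (log2 fold change -1.77, adjusted p = 0.0460) held without only 1 of the 9 libraries, L-I replicate 2. Neither was called lower with total reads as the scale. A dip was also seen in Glyma10g03320.1, which had 8.52, 18.8 and 10.9 at L-I, 0 in every L-II library and 6.41, 7.39 and 4.91 at L-IV. It was at least 4.17-fold lower at L-II than at L-I (adjusted p = 4.64e-04) and at least 2.04-fold higher at L-IV than at L-II (adjusted p = 0.00238).

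Members were not all from different genes. Of the 209 genes, 8 had at least 2 member transcripts, and Glyma14g01405 had 5. Since only reads matching a single transcript were counted by the authors, each model was seen through its own reads. In the 26 member genes with several models there were 68 models, 38 members and 30 not. Of those 30, 27 rose by at least 1 in both organs and none fell by at least 1 in either. The 5 member models of Glyma14g01405 had mean levels of 36.5, 13.2, 11.3, 23.5 and 13.03 normalized counts at L-IV, in the order of their model numbers, and all but Glyma14g01405.3 were called higher from L-II to L-IV. Only Glyma14g01405.1 was called without every single library in turn and in every other alternative (log2 fold change 2.82, adjusted p = 0.00846). The calls of Glyma14g01405.6 and Glyma14g01405.7 were lost without L-II replicate 2 or any L-IV library, and that of Glyma14g01405.6 also without L-II replicate 1. Glyma09g01320.1 and Glyma09g01320.5 rose from L-II to L-IV by log2 fold changes of 1.98 (adjusted p = 0.0201) and 2.12 (adjusted p = 0.00172), and the first call was lost without L-II replicate 3 or any L-IV library. Both models of Glyma10g37560 were uncalled (adjusted p = 0.236 and 0.403).

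Members came from each of the 20 chromosomes. In the order of gene identifiers, which follows the chromosome, 10 pairs of member genes lay within 5 positions of each other and involved 19 genes. Glyma14g36660, Glyma14g36690 and Glyma14g36700 formed a run with 1 other gene in it. Glyma05g25690 and Glyma05g25701, Glyma18g18921 and Glyma18g18931, Glyma08g20791 and Glyma08g20800, and Glyma01g33080 and Glyma01g33097 were direct neighbors. The identifiers give no coordinates, and neighbors may share sequence that leaves few unique reads.

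At the lower end of the range, some members were barely detected. Glyma19g32190.1 had 6.24, 5.14 and 3.66 normalized counts at L-V, Glyma18g50175.1 had 3.56, 8.22 and 1.46 and Glyma07g13390.1 had 4.45, 2.06 and 5.86. These values were close to the floor, and none of these transcripts was called from L-II to L-IV (adjusted p = 0.270, 0.953 and 0.791). At that depth their leaf course before L-V was not detectable.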

How the data were processed

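RNA from 9 cotyledon and 15 leaf libraries was sequenced by the authors, who aligned reads to the Gmax_189 transcripts with Bowtie, kept reads that matched 1 transcript, and deposited the counts as variance-stabilized log2 values from DESeq, 1 table per organ. These log2 values were converted back to normalized counts with the lowest value of each table, and in every library 100% of them were whole multiples of a single step (tolerance 0.05), which gave the reads. The study's own comparisons were not used. Stage numbers 1, 3, 5, 7 and 8 of the leaf labels correspond to L-I through L-V here.

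Normalized counts plus 1 were log2-transformed and fitted with limma 3.58.1 (R 4.3.3) with an intensity trend, on the 9 libraries of L-I, L-II and L-IV, for the 50940 transcripts whose replicates at some leaf stage held 10 reads or more in sum. p-values were adjusted over all of them by the Benjamini-Hochberg method. Alternatives were pseudocounts of 0.1 and 5, the deposited log2 values, no filter, a filter on a mean of 10 normalized counts, all 15 leaf libraries, total reads as the scale, limma-voom on the recovered reads, replicate number as a term, the adjusted p alone, and each library left out in turn.

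The members and the gene groups were chosen with earlier results of these data known. Named are the first 10 members by the smaller of their organ differences, up to 3 per group, those nearest the limits, those with the largest calls, genes with several member transcripts and the lowest at L-V. The remaining annotated members were added after their values were seen. Annotation came from the study's supplementary sheets (4067 genes). The RefSeq table held none of these identifiers, so no sequence is shown. Libraries came from different plants, so p-values measure the spread between plants of 1 growth experiment, and cotyledon and leaf libraries were run on different sequencers.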

Additional observations from a re-analysis of the deposited data

How the results depend on the processing

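The number of members followed the limits of the rule: 493 transcripts met it at a difference of at least 1.5 and 41 at a difference of at least 3, and leaving out single libraries gave 158 (without L-V replicate 1) to 307 (without L-V replicate 3). The count of members called from L-II to L-IV was 117, and 76 to 118 when single libraries were left out, with the lowest count without L-IV replicate 2. Over all transcripts 5076 were called, and 3080 (without L-IV replicate 2) to 6065 in the same fits, with 3304 without L-II replicate 2. Members called from L-I to L-II numbered 47, and 28 with a pseudocount of 5. Leaving out single libraries gave 38 to 48 of them, and 116 to 143 of the 135 called from L-I to L-IV. The median log2 fold change of the members from L-II to L-IV was 2.82 with a pseudocount of 0.1 and 1.43 with a pseudocount of 5, and 2.11 to 2.44 when single libraries were left out. In the other alternatives 78 to 125 members were called from L-II to L-IV, with more higher than lower in each. From L-I to L-II the balance of 27 higher and 20 lower turned to 23 and 25 without L-II replicate 3 and to 20 and 21 with limma-voom. The cause of these shifts was not tested. Of 50 named members called, 29 were called in every alternative. The correlations of same-numbered libraries of L-I, L-II and L-IV ran from -0.06 to 0.04, so the numbers were not taken to pair these 9 libraries. With a replicate block 107 members (106 higher, 1 lower) and 4728 transcripts were called from L-II to L-IV, 44 members from L-I to L-II and 136 from L-I to L-IV. Members at the floor limit what the depth can show: 9 were at it at both L-II and L-IV.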
